A study of Homo sapiens with 3 samples.

Results

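The 43 genes described here encode proteins of the mitotic spindle, the kinetochore and condensin, and they were chosen by their measured ratio between the clones, because mitosis genes had lower signals in U87WT than in U87Mut. They are 43 of the 25006 genes that could be named on the arrays, each was represented by its brightest probe, and every one of the 43 had a probe. Since the choice used this ratio, it is given below as a description and was not tested.

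U87 (U-87MG) is an established human glioblastoma cell line. The U87WT 5 clone carried GFP-IGF1R, a wild-type IGF1 receptor fused to green fluorescent protein that is labelled as nuclear, and the U87Mut 5 clone carried GFP-IGF1R1025x-1100x-1120x, a fusion in which lysines were changed to arginines and which is labelled as non-nuclear. Each is 1 stable clone selected with G418 after transfection, so clone and receptor cannot be told apart, and no untransfected U87 cells were analysed here. There were 3 two-color arrays, 1 for each condition: serum-free medium, IGF1 (50 nM), and IGF1 (50 nM) with OSI906 (0.5 μM), a dual inhibitor of IGF1R and insulin receptor kinases given from 1 h before IGF1. The treatments lasted 24 h. The label of the medium gives 500 μM for OSI906, whereas the sample name and the treatment protocol give 0.5 μM. The Cy5 dye always marked U87WT and the Cy3 dye U87Mut. Each condition had a single array, and as the dyes were not swapped, dye and clone cannot be told apart for any gene. The intermediate filament gene VIM, which U87 cells express, was well above background in both clones on the 3 arrays, as were CD44, NES and CHI3L1, while GFAP and SOX2 were not well above background in either clone on any array. Of the other glial genes, OLIG2 was well above background in both clones on the 3 arrays, at spot signals of 32 to 36, and S100B was so in U87WT on 2 arrays. Among 5 markers of other cell types, EPCAM and PTPRC were well above background in both clones on the 3 arrays, at median spot signals of 30 to 114 over a background of 21 to 22, PECAM1 was so in U87WT on 1 array, and CDH1 and KRT5 on none.

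Cells enter mitosis after replicating their DNA. Condensin and topoisomerase II compact the chromosomes, kinetochores assembled on the centromeres attach them to spindle microtubules, and the spindle checkpoint holds back anaphase until every chromosome is attached. Many genes of these proteins are transcribed mainly in G2 and mitosis, under complexes that include MYBL2 and FOXM1, and their promoters often hold a CHR element (cell cycle genes homology region) close to the start site and CCAAT boxes upstream of it. In bulk RNA, fewer dividing cells and less RNA per dividing cell cannot be told apart.

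These motifs were looked up in the RefSeq promoter windows (GRCh38.p14, 250 bases before and 50 bases after the start site), which were at hand for 38 of the 43 genes; AURKA, BIRC5, BUB3, TPX2 and TTK had no entry. The CHR element (TTTGAA or TTCGAA, either strand) was found in the whole window of 30 of 38 promoters (78.9%), compared to 4553 of 27303 promoters of all genes (16.7%). In the 250 bases before the start it was in 20 of 38 (52.6%) compared to 14.6% of all promoters, and in the last 100 of these bases in 16 of 38 (42.1%) compared to 4.96%. CCAAT, on either strand, was in the 250 bases of 30 of 38 promoters (78.9%) compared to 33% of all, and 17 of 38 (44.7%) held it at least 2 times, compared to 10%. For other mitotic genes, described below, 58 promoters were at hand. Of these, 34.5% held the CHR element in the 250 bases and 17.2% in the last 100. CCAAT was in 51.7% of them, and at least 2 times in 32.8%. An excess of these motifs is thus not particular to the 43 genes. A match of letters describes the sequence and is not a measured binding site. The clone ratio, explained below, had a median of -0.40 over the 20 genes with a CHR element before the start and of -0.58 over the 18 without one there. As 30 of 38 whole windows held the element, these 18 include genes with one at or after the start. The difference was not tested.

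To show these letters in place, the 160 bases before the start site are printed for the 5 genes with the lowest clone ratio among those that hold both motifs in that stretch, 5′ to 3′ on the strand of the gene, with CHR elements and CCAAT boxes in capitals. In CDCA8 the CHR element and the last CCAAT box (as ATTGG) share a base, and in ZWINT and KIF11 the CHR element lies on the other strand (TTCAAA).
ZWINT (chr10:56361274-56361433, minus strand): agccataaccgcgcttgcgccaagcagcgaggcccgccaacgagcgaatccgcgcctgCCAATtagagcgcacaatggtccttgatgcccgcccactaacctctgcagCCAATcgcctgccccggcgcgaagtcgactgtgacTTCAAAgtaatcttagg
KIF23 (chr15:69414189-69414348, plus strand): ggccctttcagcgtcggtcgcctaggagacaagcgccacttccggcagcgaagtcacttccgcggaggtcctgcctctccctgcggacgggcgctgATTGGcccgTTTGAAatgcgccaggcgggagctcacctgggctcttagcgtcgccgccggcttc
PRC1 (chr15:90994536-90994695, minus strand): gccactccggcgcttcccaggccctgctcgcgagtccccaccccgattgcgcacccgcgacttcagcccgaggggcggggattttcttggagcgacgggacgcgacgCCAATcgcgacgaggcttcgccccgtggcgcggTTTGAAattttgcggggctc
CDCA8 (chr1:37692356-37692515, plus strand): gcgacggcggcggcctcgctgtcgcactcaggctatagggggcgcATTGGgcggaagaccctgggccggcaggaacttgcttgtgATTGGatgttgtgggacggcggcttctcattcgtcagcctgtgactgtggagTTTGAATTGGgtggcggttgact
KIF11 (chr10:92592970-92593129, plus strand): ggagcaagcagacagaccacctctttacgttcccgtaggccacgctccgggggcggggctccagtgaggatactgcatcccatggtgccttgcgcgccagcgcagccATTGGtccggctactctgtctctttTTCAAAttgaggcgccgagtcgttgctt

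The mitotic genes had lower signals in U87WT than in U87Mut on every array. The clone log2 ratio is the log2 of the U87WT over the U87Mut signal of a probe after background correction and normalization, so that a negative value is a lower signal in U87WT. Its median over the 43 genes was -0.51 in serum-free medium, -0.61 with IGF1 and -0.42 with IGF1 and OSI906, while the medians over all named genes were -0.00, 0.01 and -0.00. These medians lay below 0 in every alternative processing that was run, at -0.71 to -0.48, -0.92 to -0.31 and -0.63 to -0.37. The order of the arrays did depend on it. The IGF1 array gave the median nearest to 0 (-0.32) when spots marked as not uniform were kept in the background fit of every array. The IGF1 median was also the nearest to 0 with median in place of loess normalization (-0.31) and with the deposited ratios (-0.38).

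Counted at a size of 0.5 on the log2 scale, 22 of the 43 genes lay below -0.5 in serum-free medium, where 3.77% of all named genes did. With IGF1 there were 28 (2.93% of all named genes) and with IGF1 and OSI906 there were 20 (3.48%). Among the genes well above background in both clones on all arrays, which 42 of the 43 were, the shares were 6.12%, 4.72% and 5.66%. All 3 arrays had a ratio below -0.5 for 18 genes (1.48% of all named genes) and a ratio below 0 for 40 genes (24.2%). Of the 15343 named genes well above background, 368 and 4407 did so. Among the 43 genes, the ratios above 0 were BUB3 in serum-free medium (0.05), INCENP with IGF1 (0.08) and TOP2A with IGF1 (0.74). Above 0.5 there were 0, 1 (TOP2A) and 0 of the 43 genes on the 3 arrays, where 4.08%, 4.77% and 3.6% of all named genes were, and the TOP2A spot is described below. Without TOP2A the counts were 21, 28 and 19.

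As no condition was repeated, the spread between arrays is the only guide to the error of a ratio. For all probes well above background, the serum-free array and the array with IGF1 and OSI906 gave a standard deviation of 0.14 (log2) for a single ratio, in which any response to the treatment is included. The 43 genes had a median standard deviation of 0.13 over the 3 arrays, and 25 of them varied by no more than 0.14. For the genes BIRC5, CENPE and INCENP the brightest probe was spotted 10 times on each array, and the standard deviation over spots was 0.02 to 0.10.

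**Figure D1:**
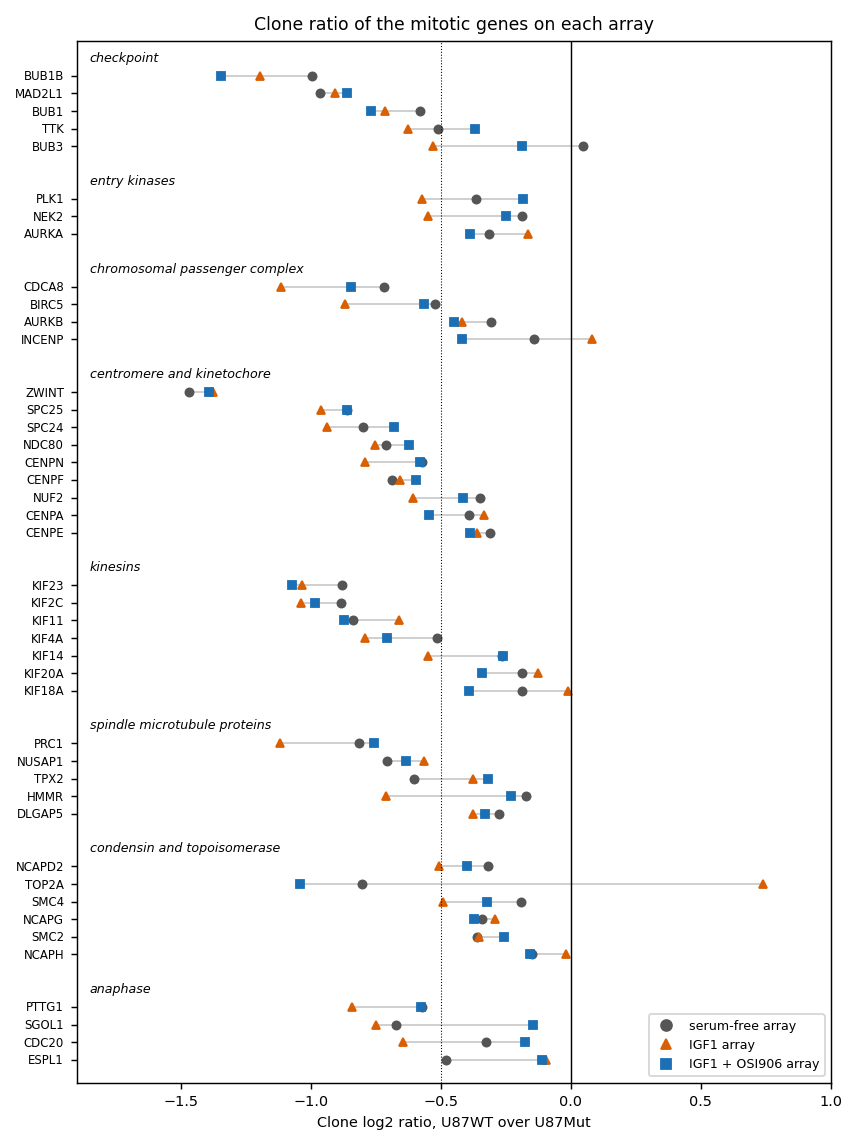
Clone log2 ratio (U87WT over U87Mut) of each of the 43 mitotic genes, by role, on the serum-free array (circles), the IGF1 array (triangles) and the array with IGF1 and OSI906 (squares); gray lines join the 3 values of a gene and the dotted line marks -0.5. ZWINT lies at -1.47 to -1.38, and TOP2A is the only gene above 0.5, on the IGF1 array.

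**Figure D2:**
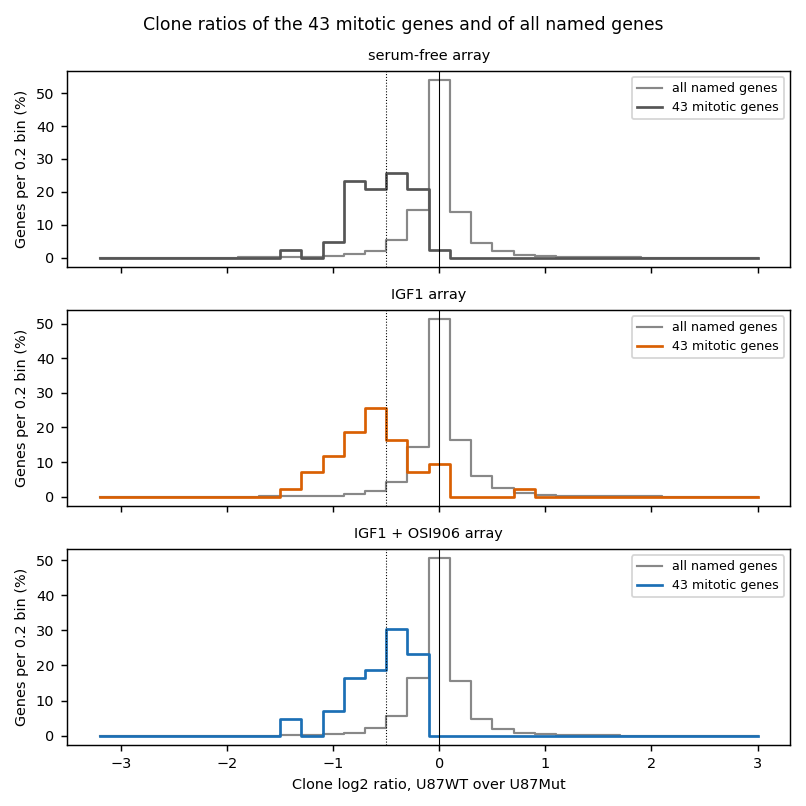
Percent of genes per bin of 0.2 in clone log2 ratio on each array, for the 43 mitotic genes (colored) and all named genes (light gray); the dotted line marks -0.5. All named genes center on 0, while the mitotic genes have medians of -0.51, -0.61 and -0.42 from top to bottom.

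Among the genes of the centromere and kinetochore, 6 of 9 lay below -0.5 on all arrays. ZWINT, which links the outer kinetochore to the checkpoint, had the lowest ratio of the 43 genes, at -1.47 in serum-free medium, -1.38 with IGF1 and -1.39 with IGF1 and OSI906. The normalized log2 level of its probe was 8.67, 8.70 and 8.51 in U87WT and 10.13, 10.07 and 9.90 in U87Mut. The mean ratio corresponded to a signal 2.66-fold higher in U87Mut. As the gene was chosen by its ratio and the 3 levels are different conditions, their separation between clones is no further support. Its other probe gave -1.08, -0.91 and -1.01.

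The subunits of the NDC80 complex, which binds microtubules at the outer kinetochore, were all among the 43 genes. SPC25 was the lowest of them by mean ratio, at -0.86, -0.96 and -0.86, followed by SPC24 with -0.80, -0.94 and -0.68. NDC80 itself had -0.71, -0.75 and -0.62. NUF2 stood nearer to 0, at -0.35, -0.61 and -0.42. CENPN and CENPF, a centromere protein and a large kinetochore protein, lay between -0.79 and -0.57 on every array. Further probes of CENPN read nearer to 0 on average, the dimmest of them at -0.07, -0.15 and -0.24, and that of CENPF gave -0.31, -0.61 and -0.18. CENPA, the histone H3 variant that marks centromeres, had -0.39, -0.34 and -0.55, and the kinetochore motor CENPE was the nearest to 0 of this group, at -0.31, -0.36 and -0.39.

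Of the 5 spindle checkpoint genes, 3 lay below -0.5 on all arrays. BUB1B, which encodes the inhibitor BUBR1 of the anaphase-promoting complex, had ratios of -0.997, -1.20 and -1.35. Its level was 7.95, 7.69 and 7.38 in U87WT and 8.95, 8.88 and 8.72 in U87Mut, and the mean ratio corresponded to a signal 2.26-fold higher in U87Mut. MAD2L1 (MAD2) had -0.96, -0.91 and -0.86, and the kinase BUB1 had -0.58, -0.72 and -0.77. The kinase TTK (MPS1) lay at -0.51, -0.63 and -0.37. BUB3, the partner of BUB1 and BUBR1, differed most between arrays within the group, with 0.05, -0.53 and -0.19. Its other probe gave -0.34, -0.35 and -0.15, so the value near 0 in serum-free medium rests on the brighter probe.

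The 3 kinases of mitotic entry and centrosome maturation had mean ratios of -0.37 to -0.29, and none of them lay below -0.5 on all arrays. PLK1 had -0.36, -0.57 and -0.18, with levels of 6.95, 6.91 and 7.03 in U87WT and of 7.31, 7.48 and 7.21 in U87Mut. A further, dimmer probe of PLK1 gave -0.09, -0.19 and -0.10. NEK2, which separates the centrosomes, had -0.19, -0.55 and -0.25. AURKA (Aurora A) lay at -0.31, -0.16 and -0.39.

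In the chromosomal passenger complex, which corrects faulty attachments, the ratios differed between subunits. CDCA8 (borealin) had -0.72, -1.12 and -0.85, and its level was 9.27, 8.86 and 8.74 in U87WT against 9.98, 9.97 and 9.58 in U87Mut. BIRC5 (survivin) had -0.52, -0.87 and -0.56. AURKB, the kinase of the complex, lay at -0.31, -0.42 and -0.45. Its probe was dim, and its mean ratio of -0.39 became -0.80 with a background offset of 0 and -0.83 with the scanner's processed signals. The mean ratio of BIRC5 was -0.67 and -0.64 in these settings, so the order of AURKB and BIRC5 depended on the processing. With an offset of 0 the mean ratio of BUB1 went from -0.69 to -0.91, while that of BUB3, a brighter probe, went from -0.22 to -0.23. Ratios of dim probes are thus held nearer to 0 by the background offset of 50 used here. The order of genes within and between roles was not adjusted for brightness. The scaffold INCENP had -0.14, 0.08 and -0.42, and the standard deviations over its 10 spots were 0.06, 0.10 and 0.08.

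Among the 7 kinesins, 4 lay below -0.5 on all arrays. KIF23, a motor of the central spindle needed for cytokinesis, had -0.88, -1.04 and -1.07, with levels of 9.43, 9.02 and 8.97 in U87WT and of 10.31, 10.05 and 10.04 in U87Mut. KIF2C, which depolymerizes microtubules at kinetochores, had -0.88, -1.04 and -0.98. KIF11 (Eg5), which pushes the spindle poles apart, lay at -0.84, -0.66 and -0.87, and the chromokinesin KIF4A at -0.51, -0.79 and -0.71. A further, dimmer probe of KIF4A was below -0.5 on no array, at -0.48, -0.46 and -0.24, whereas that of KIF23 gave -0.51, -0.62 and -0.55. KIF14 and KIF20A, which act in cytokinesis, lay between -0.55 and -0.13. KIF18A, which dampens chromosome movements, was nearest to 0, at -0.19, -0.01 and -0.39.

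Of the 5 spindle microtubule proteins, PRC1 and NUSAP1 lay below -0.5 on all arrays. PRC1, the antiparallel microtubule bundler of the central spindle that recruits KIF4A, had -0.82, -1.12 and -0.76, and its levels were 9.28, 9.15 and 9.16 in U87WT and 10.10, 10.27 and 9.92 in U87Mut. NUSAP1 had -0.71, -0.57 and -0.64. TPX2, the activator of Aurora A, was nearer to 0, with -0.60, -0.38 and -0.32. HMMR varied most between arrays in this group, at -0.17, -0.71 and -0.23. DLGAP5, which stabilizes kinetochore fibers, lay at -0.28, -0.37 and -0.33.

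None of the 6 genes of chromosome compaction lay below -0.5 on all arrays. The core ATPases SMC2 and SMC4 lay between -0.49 and -0.19. A further probe of SMC2 read lower, at -0.66, -0.80 and -0.67. The condensin I subunit NCAPD2 had -0.32, -0.51 and -0.40, with levels of 10.99, 10.76 and 10.85 in U87WT and of 11.31, 11.27 and 11.25 in U87Mut, and NCAPG had -0.34, -0.29 and -0.37. The further probe of NCAPD2 read nearer to 0, at -0.06, -0.07 and -0.18. NCAPH had -0.15, -0.02 and -0.16, and it was not well above background in U87WT in serum-free medium. NCAPG was dim too, with spot signals of 43, 34 and 35 in U87WT and of 66, 43 and 51 in U87Mut. Its local background was 20 to 21 in both channels. The offset of 50 holds ratios of such dim probes nearer to 0. The small ratios of NCAPG and NCAPH therefore do not show that these genes differed less between the clones.

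TOP2A (topoisomerase II alpha) had ratios of -0.80 in serum-free medium and -1.04 with IGF1 and OSI906, but of 0.74 with IGF1. On the IGF1 array its single spot had a Cy5 signal of 1346 and a Cy5 local background of 935, while the local background of that spot was 23 and 22 in Cy5 on the other arrays. The next highest Cy5 background among the 43 genes on the IGF1 array was 38. Of the 120 spots within 5 rows and columns of the TOP2A spot, 106 had a Cy5 background above 100 on the IGF1 array and 0 had one on either of the others. The Cy3 signal, that of U87Mut, was 316, 179 and 214 on the 3 arrays over a background of 20 to 26. The IGF1 values of TOP2A thus come from a region of raised Cy5 background, and results with IGF1 are given below with and without this gene.

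Of the 4 genes of the onset of anaphase, PTTG1 (securin), the inhibitor of separase, lay below -0.5 on all arrays, at -0.57, -0.84 and -0.58. Its levels were 11.93, 11.81 and 11.82 in U87WT and 12.50, 12.65 and 12.40 in U87Mut. SGOL1 (shugoshin 1, now SGO1), which protects centromeric cohesion, had -0.67, -0.75 and -0.14. CDC20, the activator of the anaphase-promoting complex, had -0.32, -0.64 and -0.18. Separase itself, ESPL1, lay at -0.48, -0.09 and -0.11.

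**Figure D3:**
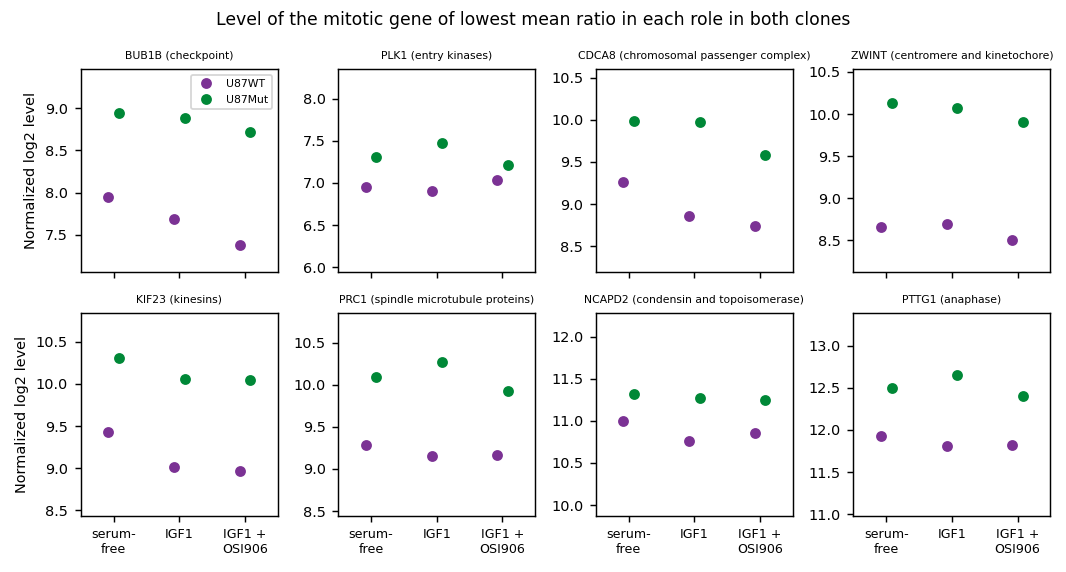
Normalized log2 level of the gene with the lowest mean clone ratio in each role, in U87WT (purple) and U87Mut (green) under each condition, 1 array each; each panel spans 2.4 log2 units, and levels are not comparable between genes. For ZWINT the U87WT values lie at 8.51 to 8.70 and the U87Mut values at 9.90 to 10.13.

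For 12 of the 43 genes the arrays held more than 1 probe. The 13 further probes all gave ratios below 0 on all 3 arrays, with means from -1.0 to -0.11, and 3 of them lay below -0.5 on all 3. The 43 genes lie on 18 chromosomes.

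With IGF1 alone, 2 of the 43 genes differed from serum-free medium by more than 0.5 in U87WT and 0 did in U87Mut. The median change in U87WT was -0.17 (log2), compared with 0.00 over all named genes, and 35 of 43 genes were below 0, where 49.2% of all named genes were. In U87Mut the median change was -0.06 compared with -0.01, and 28 of 43 genes were below 0 (54.8% of all named genes). The change beyond 0.5 in U87WT was upward for TOP2A (1.51% of all named genes) and downward for HMMR (1.76%), and the shares of all named genes beyond 0.5 in U87Mut were 0.568% upward and 1.03% downward. Of the 15343 named genes well above background, 323 went upward and 418 downward by this size in U87WT, and 131 and 258 in U87Mut. The direction in U87WT depended on the processing, since the median became 0.084 with all spots in the background fit and 0.068 with median in place of loess normalization. In U87Mut it became 0.02 with all spots in the fit. Without TOP2A the medians were -0.18 in U87WT and -0.06 in U87Mut. These changes compare the same dye on different arrays with no replicate, and a difference between the clones was not tested.

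Among single genes, HMMR, a hyaluronan receptor that also binds spindle microtubules, had a level in U87WT of 8.53 in serum-free medium and of 7.87 with IGF1 (a difference of -0.65). CDCA8 and KIF23, whose levels are given above, both differed by -0.41. The highest differences in U87WT were those of TOP2A (1.19, in the region of raised background), MAD2L1 (0.17, levels 7.62 and 7.79) and TPX2 (0.17, levels 8.95 and 9.12). In U87Mut the lowest were INCENP (-0.39, levels 8.16 and 7.77), ESPL1 (-0.39, levels 9.37 and 8.98) and KIF11 (-0.38, levels 8.43 and 8.05). The highest in U87Mut were CENPN (0.24, levels 11.02 and 11.25), BUB3 (0.18, levels 10.90 and 11.07) and PRC1 (0.17).

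With OSI906 added to IGF1, the signals of most of the 43 genes lay below those in serum-free medium in both clones. In U87WT the median change from serum-free medium was -0.25, compared with -0.01 over all named genes, and 39 of 43 genes were below 0 (52.2% of all named genes). In U87Mut it was -0.21 compared with -0.00, and 41 of 43 genes were below 0 (51.5%). In U87WT 5 genes lay below -0.5 (1.46% of all named genes), namely INCENP (-0.86), BUB1B (-0.58), CENPF (-0.58), TOP2A (-0.54) and CDCA8 (-0.53), and in U87Mut 2 did (0.468%), CENPF (-0.68) and INCENP (-0.58). Of the 15343 named genes well above background, 348 lay below -0.5 in U87WT and 117 in U87Mut. None of the 43 genes exceeded 0.5 in either clone, where 1.51% and 0.428% of all named genes did. The medians stayed below 0 in every alternative, at -0.42 to -0.11 in U87WT and -0.41 to -0.17 in U87Mut. CENPF, a farnesylated protein that accumulates in G2, went from 10.81 to 10.23 in U87WT and from 11.50 to 10.82 in U87Mut.

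Compared with IGF1 alone, the array with OSI906 gave a median change of -0.05 in U87WT (27 of 43 below 0, and 52.4% of all named genes) and of -0.17 in U87Mut (35 of 43, and 46.9%). INCENP (-0.69) and TOP2A (-1.73) lay below -0.5 in U87WT (2.47% of all named genes), and none did in U87Mut (0.644%). Of the 15343 named genes well above background, 564 and 151 did. The TOP2A value rests on the spot of raised Cy5 background on the IGF1 array. Without TOP2A the medians were -0.05 in U87WT and -0.17 in U87Mut. None exceeded 0.5 in either clone, where 2.31% (U87WT) and 1.27% (U87Mut) of all named genes did. The comparisons share arrays with each other, so their values are not independent. No array was repeated, so none of these differences has a replicate error.

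**Figure D4:**
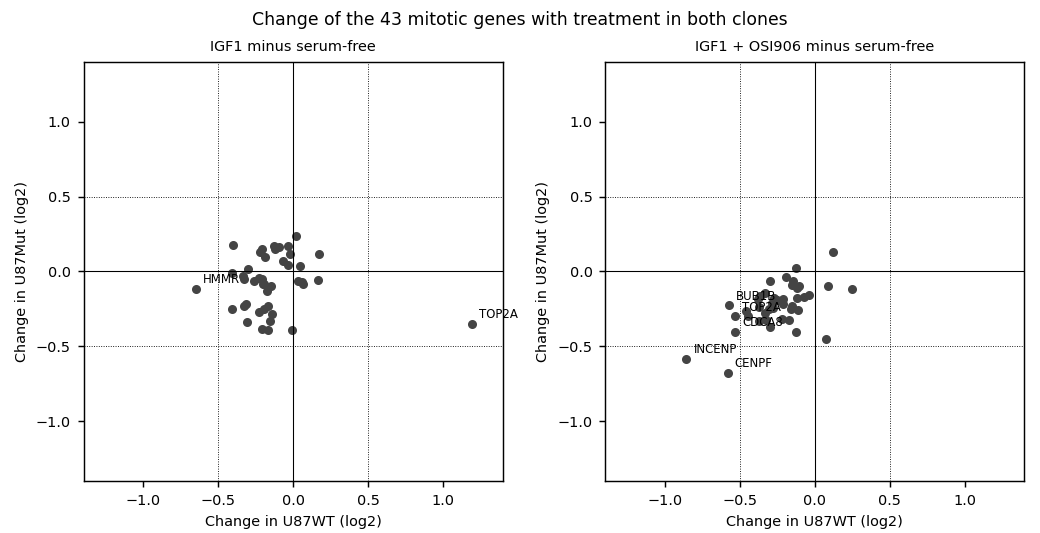
Change of each of the 43 mitotic genes from serum-free medium (log2) in U87WT (horizontal) and U87Mut (vertical), with IGF1 (left) and with IGF1 and OSI906 (right); dotted lines mark -0.5 and 0.5 and genes beyond them are named. In the right panel the medians are -0.25 in U87WT and -0.21 in U87Mut, and TOP2A at 1.19 in the left panel rests on the spot of raised background.

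Other genes of mitosis, listed with earlier results of these data known, were tested with limma over the 3 arrays as a group against a ratio of 0, with Benjamini-Hochberg adjustment over 58174 probes. Since lower signals of mitosis genes on these same arrays prompted the choice, the calls describe how far the difference extends through the pathway and are not independent evidence of its direction. Of the 75 other mitotic genes, 43 were lower in U87WT at an adjusted p under 0.05, 1 was higher and 31 did not pass, whereas 6.65% of all named genes were called lower and 7% higher. Their median mean ratio was -0.43, next to -0.43 for the 43 mitotic genes described above. The arrays are different conditions, so the response to treatment is part of the error. All 3 arrays compare the same pair of clones with the same dyes. The SE and p-values here and for the lists below therefore do not measure the spread between independent clones. The number called was sensitive to the processing: it was 0 with the signals processed by the scanner software and 0 with median in place of loess, where 45 and 42 genes had an unadjusted p under 0.05, and it was 3 without the array with IGF1 and OSI906 and 22 without the serum-free array.

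The lowest of these genes were MLF1IP (CENPU, a centromere protein), at -1.50 ± 0.03 (SE, 3 arrays; limma adjusted p = 0.0029), CDCA5 (sororin, which stabilizes cohesin) at -1.39 ± 0.08 (adjusted p = 0.0041) and the kinetochore protein KNTC1 at -1.25 ± 0.06 (adjusted p = 0.0034). CCNB1, the gene of cyclin B1, was at -0.56 ± 0.07 (adjusted p = 0.018), and its kinase CDK1 had -0.83 ± 0.05 (adjusted p = 0.0044). The transcription factors FOXM1 (-0.60 ± 0.06, adjusted p = 0.012) and MYBL2 (-0.63 ± 0.06, adjusted p = 0.011) were also lower in U87WT. MKI67, which encodes the proliferation marker Ki-67, did not pass, with -0.32 ± 0.16 (adjusted p = 0.35), and its ratios were 0.01, -0.77 and -0.20. The highest were FZR1, an activator of the anaphase-promoting complex after mitosis (0.34 ± 0.04, adjusted p = 0.015), CDC25B (0.16 ± 0.07, adjusted p = 0.28) and the cohesin subunit STAG2 (0.13 ± 0.12, adjusted p = 0.62).

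Of the DNA replication genes, all 16 with a probe were lower in U87WT at an adjusted p under 0.05, with a median mean ratio of -1.19. The lowest were CDC45 (-1.80 ± 0.08, limma adjusted p = 0.0033) and MCM7 (-1.75 ± 0.09, adjusted p = 0.0041), both of the replicative helicase, and the licensing factor CDT1 (-1.66 ± 0.07, adjusted p = 0.0032). Nearest to 0 were MCM10 (-0.79 ± 0.06, adjusted p = 0.0073), RRM2 (-0.58 ± 0.10, adjusted p = 0.041) and CDC6 (-0.30 ± 0.05, adjusted p = 0.039), which was not well above background in both clones on all arrays. With the scanner's processed signals or with median in place of loess none of the 16 passed, although all 16 had an unadjusted p under 0.05. The number that passed was 10 without the array with IGF1 and OSI906, 10 with all spots in the background fit, 11 with an offset of 0 and 12 with the deposited ratios. The difference between the lists was not tested.

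The CDK inhibitors and p53 growth arrest genes did not share the direction, with a median mean ratio of 0.09. GADD45A, a stress-induced gene of growth arrest, was the only 1 of 11 called, at -1.02 ± 0.07 (limma adjusted p = 0.0048), and it lost its call with the scanner's signals, with median in place of loess, with an offset of 0 and without the array with IGF1 and OSI906 (-1.02). The next lowest were CDKN2D (-0.21 ± 0.07, adjusted p = 0.21) and CDKN1A (p21), at -0.20 ± 0.09 (adjusted p = 0.32), with ratios of -0.27, 0.05 and -0.37. The highest were CDKN1B (p27), at 0.35 ± 0.10 (adjusted p = 0.14), ZMAT3 (0.22 ± 0.09, adjusted p = 0.24) and SESN1 (0.17 ± 0.13, adjusted p = 0.55). CDKN1B passed when several probes of a gene were averaged, and both CDKN1B (0.50, higher) and CDKN1A (-0.32, lower) passed without the IGF1 array.

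**Figure D5:**
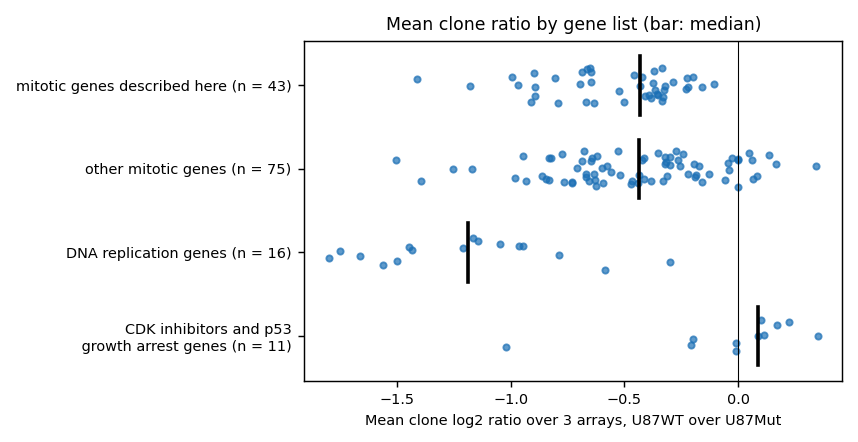
Mean clone log2 ratio over the 3 arrays of each gene (points, spread vertically for visibility) in 4 lists; the black bars are medians. The 43 mitotic genes and the 75 other mitotic genes both have a median of -0.43, the 16 DNA replication genes one of -1.19 and the 11 arrest genes one of 0.09.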

How the data were processed

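The intensity values were deposited as Agilent Feature Extraction 12.0.3.1 gave them, with no normalization: the median brightness and local background of 62976 spots per channel. The same files hold processed intensities, which the scanner software had corrected for background and dye. A table of log2 ratios between the clones, which the authors made with limma, was deposited too.

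The background was corrected by normexp (offset 50) fitted without spots marked as not uniform (384, 572 and 5). The TOP2A spot of the IGF1 array was not so marked and stayed in the fit. The 2075 control spots were removed, arrays were normalized by loess and Aquantile in limma 3.58.1 (R 4.3.3), 95 to 117 outlier spots per array were left out, and spots were averaged over 58201 probes. Levels of a clone are single-channel log2 values after these steps. All 3 arrays were on 1 slide and scanned together, no spot was saturated (0 on every array), and 50.1% to 52.8% of probes exceeded background clearly in both channels; the number of arrays limits the precision.

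Of 36770 probes with a RefSeq accession, 34892 were named through the GRCh38.p14 annotation, which gave 25006 genes, each by its brightest probe. MCM3 of the replication list had no named probe and was not analysed here. A difference beyond 0.5 (log2) was counted by size, without a p-value. The comparison lists were tested by limma (intercept only, eBayes, Benjamini-Hochberg at 5%). In a test on simulated data with 200 probes moved by 1 (log2), 199 were called, with 5 others, and the median recovered size was 0.87. The moved probes were drawn from brighter ones, and the simulated arrays had an even background, no dye bias and no treatment response. The test therefore does not show how dim probes or the real arrays perform. The members and lists were chosen with earlier results of these data known. Values for every array are given for the 2 lowest and the highest gene of each role by mean ratio, and levels for the 3 largest and 3 smallest changes with IGF1 in each clone, and means over the arrays are given for the 3 lowest and 3 highest of each comparison list with MKI67, CCNB1, CDK1, FOXM1, MYBL2 and CDKN1A; values of further genes of the 43 were added after they were seen.

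Alternatives were normexp on all spots, offsets of 20 and 0, no background correction, the scanner's processed signals, median in place of loess, no or quantile normalization between arrays, the mean of all probes, only genes well above background, the deposited ratios, a limit of 1 and leaving out each array. Leaving out genes with a local background above 100 (TOP2A) was added after seeing the data.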

Additional observations from a re-analysis of the deposited data

Results flagged for a closer look

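For 3 of the 43 genes the differences between conditions had opposite signs in the clones and lay more than 0.5 (log2) apart. With IGF1, BUB3 differed by -0.40 in U87WT and 0.18 in U87Mut, a difference of -0.58. This rests on the brighter probe, since the other probe of BUB3 had clone ratios of -0.34 in serum-free medium and -0.35 with IGF1. TOP2A differed by 1.19 and -0.35 with IGF1, a difference of 1.54, and by -1.73 and 0.05 from IGF1 to IGF1 with OSI906, a difference of -1.78, both of which rest on the spot with raised Cy5 background. SGOL1 differed by 0.11 in U87WT and -0.49 in U87Mut from IGF1 to IGF1 with OSI906, a difference of 0.61, and by 0.07 and -0.45 from serum-free medium to IGF1 with OSI906, a difference of 0.53. The other probe of SGOL1 had clone ratios nearer to each other, at -0.25, -0.16 and -0.04 on the 3 arrays. That probe was dim and not well above background in both clones on all arrays, so its values say little about this difference. With 1 array per condition, none of these differences was tested.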

How the results depend on the processing

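No paired analysis was possible because each condition has 1 array, so no replicate number links the conditions, while the clones are paired on each array and every clone ratio uses that pairing. The serum-free median became -0.71 with median in place of loess. The IGF1 median became -0.38 with the deposited ratios, -0.31 with median in place of loess, -0.80 without background correction, -0.32 with all spots in the background fit, -0.88 and -0.75 with offsets of 0 and 20, and -0.92 with the scanner's signals. The median with IGF1 and OSI906 became -0.57 with the deposited ratios, -0.56 without background correction, -0.61 and -0.58 with offsets of 0 and 20, and -0.63 with the scanner's signals. The median of the mean ratio, -0.43 as reported, became -0.59 without background correction, -0.67 and -0.58 with offsets of 0 and 20, and -0.72 with the scanner's signals, and was -0.48 to -0.44 when an array was left out.

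At a limit of 1 the counts below -1 were 1, 6 and 4 on the 3 arrays, where 149, 135 and 81 of the 25006 named genes were. On all arrays the count was 1. With median in place of loess 10 genes lay below -0.5 on all arrays and 12 on the IGF1 array, 18 did on the IGF1 array with all spots in the fit, and 31 did with IGF1 and OSI906 with the scanner's signals. Leaving out an array gave 18 to 20 genes below -0.5 on the remaining arrays.

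The median change with IGF1 in U87WT became 0.068 with median in place of loess, -0.35 without normalization between arrays, 0.084 with all spots in the fit and -0.32 with the scanner's signals, and in U87Mut -0.34 with median in place of loess and -0.27 without normalization between arrays. The change with IGF1 and OSI906 from serum-free medium became -0.42 (U87WT) and -0.41 (U87Mut) without normalization between arrays, where all named genes moved by -0.15 in both, and that from IGF1 in U87WT became -0.28 with all spots in the fit.

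The other mitotic genes called lower numbered 15 with the deposited ratios, 11 with all spots in the fit, 7 with an offset of 0, and 0 with the scanner's signals or median in place of loess, and 3 to 44 when an array was left out. The single gene called higher became 0 in these settings and 0 to 2 when an array was left out. Leaving out TOP2A moved no count by over 1.5 times. Of 643 mean ratios of the 43 genes in these settings, 642 stayed below 0, and TOP2A without background correction gave 0.068. The causes of these shifts were not tested. Low signals, a lone array per condition and unswapped dyes limit all values.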
